A study of Homo sapiens with 11 samples.

Results

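In 92-1 uveal melanoma cells, 27441 of the 103379 SOX10 peaks found after 4 h of DMSO lay on a TFAP2A peak and on no MITF peak. These SOX10/TFAP2A sites made up 26.5% of the SOX10 list (95% Wilson interval 26.3 to 26.8). The sites were chosen by the DMSO values of these 3 factors: a site was a unique SOX10 peak of the DMSO library that shared 1 bp or more with a DMSO TFAP2A peak and shared none with a DMSO MITF peak. The remaining SOX10 peaks were 35950 sites with all 3 factors, called triple sites here, 10615 SOX10/MITF sites without TFAP2A and 29373 SOX10-alone sites. Chromatin immunoprecipitation with sequencing (ChIP-seq) was done in this cell line, derived from a melanoma of the eye, after 4 h of DMSO, the solvent, or of FHT-1015, an inhibitor of both BAF ATPases, SMARCA4 (also named BRG1) and SMARCA2. The antibodies were against SOX10, TFAP2A (AP-2 in the sample titles), MITF, SMARCA4 and acetylated lysine 27 of histone H3 (H3K27ac). Each antibody had 1 library in each condition, so treatment and library cannot be told apart and no test was possible. Intervals over sites cover counting error only.

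SOX10 is an HMG-box factor that establishes and maintains the melanocyte and Schwann cell lineages from the neural crest. TFAP2A binds GC-rich palindromes and acts in neural crest, skin and pigment cells. MITF, a basic helix-loop-helix factor and itself a SOX10 target, drives the pigment genes and often binds the same enhancers. BAF complexes use the ATPase SMARCA4 or SMARCA2 to move nucleosomes and so give such factors access to DNA, while H3K27ac is a mark of promoters and enhancers in use. The series asked how blocking these ATPases alters the binding of the factors. Genes that mark pigment cells carried SOX10 peaks in the DMSO library: MITF, PMEL, MLANA, TYR, TYRP1, DCT and SOX10 each had between 7 and 56 inside or within 20 kb.

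The sequences below are those of 6 promoters at which the summits of both factors fell inside the RefSeq promoter window (250 bases before to 50 after a gene start, build GRCh38.p14). Of 40 such promoters with a SOX and an AP-2 word upstream of the start, those shown are the 3 with the highest DMSO SOX10 −log10 p among the 15 whose SOX10 peak was kept, meaning that a SOX10 peak of the FHT-1015 list overlapped it, and the 3 highest among the others. Promoters on chromosomes 8 and 18 were left out before this count and choice. Each line gives the 250 bases before the start, 5′ to 3′ on the strand of the gene. Capitals mark the SOX words ACAAAG and ACAATG and the AP-2 word GCCNNNGGC, searched on both strands. No word contains another. The SOX10 peak was kept at the promoters of AGFG1 (chr2:227471906-227472155, plus strand), ARL16 (chr17:81683798-81684047, minus strand) and FBXW5 (chr9:136944739-136944988, minus strand).
AGFG1: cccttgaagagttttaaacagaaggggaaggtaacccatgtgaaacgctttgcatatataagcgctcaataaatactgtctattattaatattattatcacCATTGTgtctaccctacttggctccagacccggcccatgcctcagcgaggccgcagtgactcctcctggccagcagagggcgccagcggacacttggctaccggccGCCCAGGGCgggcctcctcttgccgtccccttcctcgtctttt
ARL16: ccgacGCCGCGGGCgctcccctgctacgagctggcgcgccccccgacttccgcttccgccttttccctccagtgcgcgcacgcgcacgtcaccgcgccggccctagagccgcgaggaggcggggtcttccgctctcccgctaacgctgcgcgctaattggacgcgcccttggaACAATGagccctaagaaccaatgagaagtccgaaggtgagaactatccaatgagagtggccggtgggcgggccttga
FBXW5: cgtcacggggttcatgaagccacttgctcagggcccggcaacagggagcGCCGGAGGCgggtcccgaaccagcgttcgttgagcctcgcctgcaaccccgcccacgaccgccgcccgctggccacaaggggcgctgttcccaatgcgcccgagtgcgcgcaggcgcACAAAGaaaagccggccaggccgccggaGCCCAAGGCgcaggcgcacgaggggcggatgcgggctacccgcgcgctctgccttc
It was not kept at those of IFT56 (chr7:139133528-139133777, plus strand), NLRP14 (chr11:7020229-7020478, plus strand) and PI16 (chr6:36948046-36948295, plus strand).
IFT56: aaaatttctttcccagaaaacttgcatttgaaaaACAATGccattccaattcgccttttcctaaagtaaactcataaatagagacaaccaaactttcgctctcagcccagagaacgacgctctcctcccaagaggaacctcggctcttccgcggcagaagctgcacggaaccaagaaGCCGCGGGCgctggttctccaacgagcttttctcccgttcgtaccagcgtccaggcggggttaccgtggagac
NLRP14: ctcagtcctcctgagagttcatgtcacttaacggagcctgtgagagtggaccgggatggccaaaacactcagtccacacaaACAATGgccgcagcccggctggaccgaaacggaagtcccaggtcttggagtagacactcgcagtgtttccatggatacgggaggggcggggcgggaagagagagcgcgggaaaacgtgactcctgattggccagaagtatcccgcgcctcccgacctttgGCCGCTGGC
PI16: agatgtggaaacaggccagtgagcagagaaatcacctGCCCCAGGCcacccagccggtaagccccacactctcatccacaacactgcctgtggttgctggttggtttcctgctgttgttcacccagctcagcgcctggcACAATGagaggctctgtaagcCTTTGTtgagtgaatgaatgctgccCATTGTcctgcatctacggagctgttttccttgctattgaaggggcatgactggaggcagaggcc

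At the AGFG1 promoter the SOX10 summit lay 25 bp and the TFAP2A summit 33 bp before the start, while the SOX word began 149 bases and the AP-2 word 43 bases before it. AGFG1 encodes a nucleoporin-like protein with an Arf GAP domain. Its SOX10 peak had a −log10 p of 20.0 in the DMSO list and 7.67 in the FHT-1015 list, and its TFAP2A peak 76.6 and 126, with no SMARCA4 peak in either list. At IFT56, a component of the transport system of cilia, the SOX10 summit lay 61 bp and the TFAP2A summit 46 bp before the start. The SOX10 peak (30.1 in DMSO) had no FHT-1015 counterpart, whereas TFAP2A had a peak in both lists (18.3 and 7.36) and SMARCA4 only in FHT-1015 (12.97). Here and below, a −log10 p or a rank belongs to 1 list, and values from lists of different size and depth are set side by side without reading a change from them.

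Over all promoters, the windows under these sites held the AP-2 word more often and the MITF words less often than promoters in general. Of 22199 windows of 15843 protein-coding genes, 27.3% held GCCNNNGGC, 20.2% held a SOX word and 16.5% held CACGTG or CACATG, the E-box words bound by MITF. In the 2076 windows with the summit of a SOX10/TFAP2A site, the AP-2 word was present in 35.4% (33.3 to 37.4), a SOX word in 16.6% (15.0 to 18.2) and a MITF word in 6.89% (5.88 to 8.06). These windows held the summits of 1860 sites, so some windows overlapped and shared a site. The intervals over windows do not allow for this. In the 3706 windows with a triple-site summit, the AP-2 word was at 33.6% (32.1 to 35.2), the SOX words at 16.0% (14.9 to 17.2) and the MITF words at 26.4% (25.0 to 27.9). The MITF words thus stood in a smaller share of windows with these sites than of windows with triple sites. Both classes were chosen by their MITF peaks, so this difference is a description and not independent of the choice. MITF words stood in 12.6% (9.47 to 16.6) of 333 windows with a SOX10-alone summit and in 36.8% (29.97 to 44.2) of 174 with a SOX10/MITF summit. Of the windows with a SOX10/TFAP2A summit, 902 had SOX10 kept and 1174 had SOX10 lost. A SOX word stood in 17.96% (15.6 to 20.6) of the kept and 15.5% (13.5 to 17.7) of the lost windows. An AP-2 word stood in 32.4% (29.4 to 35.5) of the kept and 37.6% (34.9 to 40.5) of the lost windows. The AP-2 share was thus lower with SOX10 kept, and its intervals overlapped only between 34.9 and 35.5. No interval of either difference was computed, so an overlap is not read as equal shares. The median GC content was 65.7% in windows with these sites and 62.3% in all windows. It was 64.5% in the kept and 66.7% in the lost windows. GC content bears on the frequency of every word, and its part in the shares was not tested. Sequence away from gene starts was not analysed here.

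The SOX10/TFAP2A sites were weaker SOX10 peaks than triple sites, with a median −log10 p of 7.01 (quartiles 4.79 and 11.5) against 16.6 (8.57 and 33.9). SOX10-alone sites had a median of 4.84 and SOX10/MITF sites 7.14. Of the strongest decile of the SOX10 list, 932 peaks were SOX10/TFAP2A sites and 8750 were triple sites. The strongest overlapping TFAP2A peak had a median −log10 p of 17.5, against 9.24 over all 142667 TFAP2A peaks. Counted by TFAP2A peak, the median was 16.4 at these sites and 29.4 at the other SOX10 sites. These values come from the lists that chose the sites and are a description. The median width of a site was 311 bp. SOX10 and TFAP2A summits lay a median of 59 bp apart (quartiles 24 and 140), and 12323 sites had them within 50 bp. The median distance to the nearest DMSO MITF peak was 5899 bp, and 10167 sites had none within 10 kb. Just inside the rule, 641 sites had a MITF peak within 100 bp, with a median SOX10 −log10 p of 6.26. Just outside it, the 818 triple sites that shared at most 100 bp with a MITF peak had a median of 5.62.

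Depth recovered from the peak values gave a median of 19 SOX10 reads and 29.0 TFAP2A reads under the DMSO summits. For the 4 antibodies other than SOX10, the FHT-1015 library had between 0.854 (MITF) and 1.05 (H3K27ac) times the depth of the DMSO library. For SOX10 the ratio was 1.15 with a scale of 0.890 that only its FHT-1015 list needed, and 1.02 without it. The depth of that list came from the most common background in a sample of its weak peaks. Every other depth came from the lowest background of its list, so the SOX10 ratio is not the same measure. The form behind these depths was inferred from the values. The FHT-1015 SOX10 list held 33268 peaks.

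In DMSO, 54.6% (54.0 to 55.2) of the SOX10/TFAP2A sites carried a SMARCA4 peak, where 55.0% of all SOX10 peaks did. An H3K27ac peak was present at 44.0% (43.4 to 44.6), with 49.6% over all SOX10 peaks. Both antibodies had a peak at 8944 sites (32.6%), SMARCA4 alone at 6030, H3K27ac alone at 3123 and neither at 9344 (34.1%). Triple sites had SMARCA4 at 83.8% and H3K27ac at 75.3%, and SOX10-alone sites at 20.8% and 23.1%. Part of these gaps went with SOX10 peak strength. Within deciles of the SOX10 −log10 p, SOX10/TFAP2A sites were 17.8 percentage points below triple sites for SMARCA4 (interval of the difference −18.5 to −17.0) and 19.5 points below for H3K27ac (−20.3 to −18.7). Against SOX10-alone sites of the same deciles they were 27.5 points higher for SMARCA4 (26.7 to 28.3) and 16.6 points higher for H3K27ac (15.8 to 17.4). Against SOX10/MITF sites, SMARCA4 was 2.07 points higher (1.01 to 3.14) and H3K27ac 5.45 points lower (−6.54 to −4.36). Position moved these values: among distal peaks of the same deciles the difference from SOX10/MITF sites was −0.744 points for SMARCA4, with an interval that included 0 (−1.87 to 0.385), and −12.8 points for H3K27ac (−13.9 to −11.6). Away from gene boundaries, H3K27ac peaks were thus less frequent at SOX10/TFAP2A sites than at SOX10/MITF sites of like SOX10 strength. The other distal differences kept their sign, at −19.6 and −23.2 points against triple sites and 24.7 and 10.6 points against SOX10-alone sites for SMARCA4 and H3K27ac.

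After FHT-1015 the sites parted with SOX10 far more often than with TFAP2A. A SOX10 peak was still called at 3833 of the 27441 sites, 13.97% (13.6 to 14.4), where 18.3% of all DMSO SOX10 peaks had an FHT-1015 peak. This value depended on the peak threshold and the overlap rule: it was 4.52% with a −log10 p of 10 or more in both lists, 8.57% with 50% of the DMSO peak covered, 25.5% for DMSO peaks of 10 or more against the whole FHT-1015 list, and 28.3% with the DMSO list limited to its strongest 33268 peaks. A TFAP2A peak was still called at 16976, 61.9% (61.3 to 62.4), where the share was 64.5% over all SOX10 peaks with TFAP2A. Of the 14974 sites with SMARCA4 in DMSO, 62.6% (61.9 to 63.4) had it in FHT-1015, with 67.2% over all SOX10 peaks. Of the 12067 with H3K27ac, 79.1% (78.4 to 79.9) had it in FHT-1015, with 78.6% over all SOX10 peaks. The share of sites with a SMARCA4 peak was 54.6% in the DMSO list and 42.2% in the FHT-1015 list, and that with an H3K27ac peak 44.0% and 38.2%. Peaks also appeared: SMARCA4 at 2187 of the 12467 sites without it in DMSO (17.5%, 16.9 to 18.2), with 13.8% over all such SOX10 peaks, and H3K27ac at 945 of 15374 (6.15%, 5.78 to 6.54), with 5.38% over all. Each of the shares kept thus lay within 5 percentage points of its background over all SOX10 peaks.

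**Figure D1:**
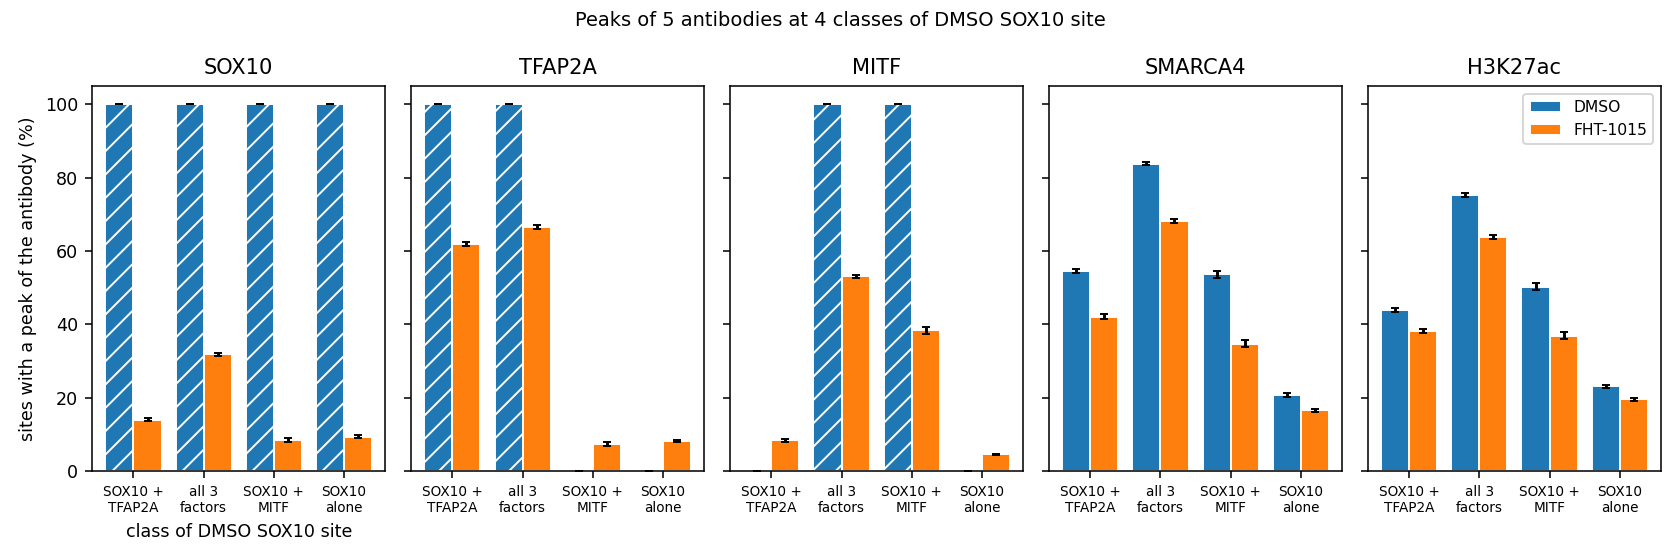
Share of sites (y axis, %) with a peak of each antibody in DMSO (blue) and FHT-1015 (orange), for the 4 classes of DMSO SOX10 site on the x axis. Error bars are 95% Wilson intervals and hatched bars were fixed by the rule that defines the classes. At the SOX10/TFAP2A sites TFAP2A was kept at 61.9% and SOX10 at 13.97%.

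Taking both factors together, TFAP2A alone was kept at 13441 sites (49.0%), neither factor at 10167 (37.1%), both at 3535 (12.9%) and SOX10 alone at 298 (1.09%). Of the 3833 sites that kept SOX10, 3535 thus kept TFAP2A too. The groups differed in chromatin. H3K27ac was present in DMSO at 77.4% of the sites that kept both (76.02 to 78.8), at 45.3% of those that kept TFAP2A alone (44.5 to 46.2) and at 30.3% of those that kept neither (29.4 to 31.2). SMARCA4 in DMSO differed less, with 69.4%, 55.1% and 48.7%. In FHT-1015, SMARCA4 had a peak at 75.1%, 48.0% and 22.9% of the same groups and H3K27ac at 79.9%, 42.6% and 17.6%. At sites that kept neither factor, both chromatin marks were therefore less frequent in the FHT-1015 lists than in the DMSO lists, while at sites that kept both factors the 2 shares were 75.1% against 69.4% for SMARCA4 and 79.9% against 77.4% for H3K27ac. The sites that kept both were also wider, with a median of 502 bp against 291 bp where neither was kept, which by itself gives more room for an overlap. Position moved with the groups too: 57.5% of the sites that kept both, 29.3% of those that kept TFAP2A alone and 5.62% of those that kept neither lay at a gene boundary, and its part in the chromatin shares was not tested.

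Each factor's own peak strength went with its retention, and the partner's strength did so much less. SOX10 was kept at 5.54% of the sites in the weakest of 5 equal groups by DMSO SOX10 −log10 p and at 29.4% in the strongest. TFAP2A was kept at 37.8% in the weakest of 5 equal groups by DMSO TFAP2A −log10 p and at 84.6% in the strongest. Across the TFAP2A groups, SOX10 retention lay between 12.3% and 17.9%. Across the SOX10 groups, TFAP2A retention lay between 59.3% and 65.8%. At like TFAP2A strength it differed more: in each TFAP2A group, TFAP2A retention was lowest in the strongest SOX10 group. In TFAP2A group 4 (5 is the strongest) it was 76.5% in the weakest SOX10 group and 63.8% in the strongest. In TFAP2A group 5 these shares were 82.5% and 80.4%. Among the 1844 sites in the strongest group for both, SOX10 was kept at 27.5% and TFAP2A at 80.4%. The strongest SOX10/TFAP2A sites by both factors thus also showed the gap between them.

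**Figure D2:**
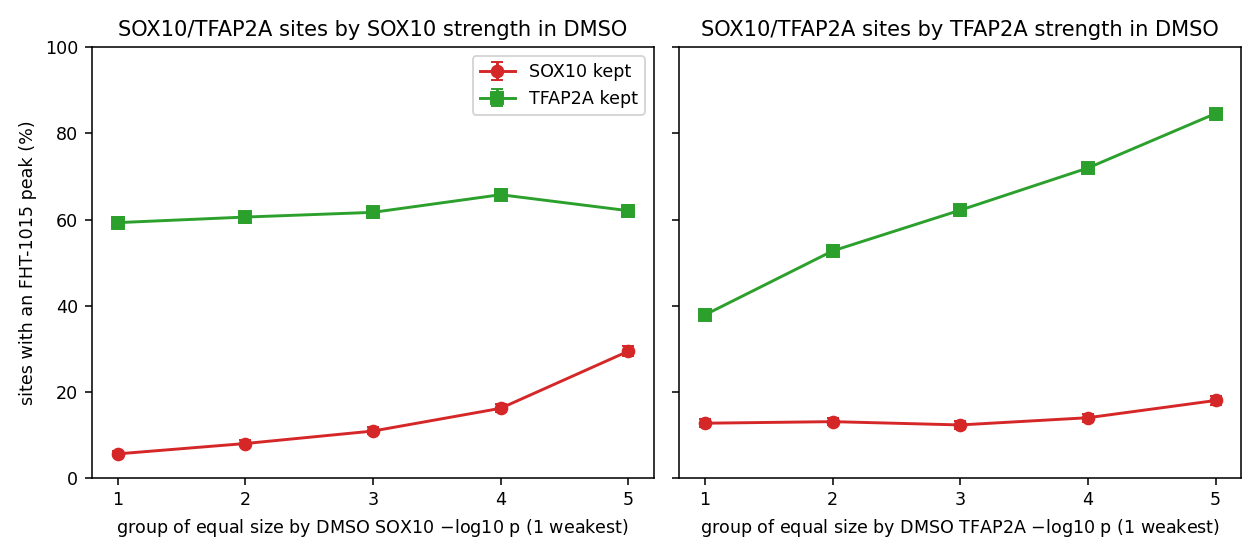
Share of SOX10/TFAP2A sites (y axis, %) with an FHT-1015 peak of SOX10 (red circles) or TFAP2A (green squares), by group of the DMSO −log10 p of SOX10 (left) or TFAP2A (right). Error bars are 95% Wilson intervals, mostly smaller than the symbols. SOX10 retention runs from 5.54% to 29.4% across SOX10 groups and from 12.3% to 17.9% across TFAP2A groups.

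The distance between the 2 summits also went with the outcome. SOX10 was kept at 10.97% (10.4 to 11.5) of the 12323 sites with summits within 50 bp and at 23.05% (21.9 to 24.2) of the 4942 with summits over 200 bp apart. The second group had more H3K27ac in DMSO (71.2% against 35.8%) and more SMARCA4 (67.1% against 52.6%), and the part of these in the result was not tested. The 462 sites that held 2 or more TFAP2A peaks kept SOX10 at 46.1% (41.6 to 50.7). Their median SOX10 −log10 p was 11.2, against 7.01 over all SOX10/TFAP2A sites. In DMSO they had SMARCA4 at 77.9% and H3K27ac at 85.1%. The part of these traits in the share kept was not tested.

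Position relative to genes separated the sites as well. Of the SOX10/TFAP2A sites, 24.05% lay within 1 kb of either boundary of a protein-coding gene, where 17.6% of all SOX10 peaks and 23.02% of triple sites did. Within 1 kb of a gene start in the RefSeq promoter table lay 20.2% of them, against 14.5% of all SOX10 peaks and 19.8% of triple sites. At a boundary SOX10 was kept at 31.6% (30.5 to 32.7) and TFAP2A at 90.5% (89.8 to 91.2). At distal sites SOX10 was kept at 8.38% (8.01 to 8.77) and TFAP2A at 52.8% (52.1 to 53.5). The difference for SOX10, distal minus boundary, was −23.2 points and came to −22.5 within deciles of SOX10 strength. Sites near the end of a gene but not near a start (684) lay between, with SOX10 kept at 22.1% (19.1 to 25.3) and TFAP2A at 77.5% (74.2 to 80.5). Distal sites inside genes kept SOX10 at 9.19% and TFAP2A at 55.6%, and those outside genes at 7.51% and 49.8%. Distal sites lay over 1 kb from gene boundaries but could lie near a start inside a gene. Of those inside genes 8.4% lay within 1 kb of a start, and of those outside genes 0%. The part of starts in this contrast was not tested.

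Near gene starts, SMARCA4 peaks were more frequent in the FHT-1015 list than in the DMSO list. Of the 5551 sites within 1 kb of a start, 69.1% (67.9 to 70.3) had a SMARCA4 peak in DMSO and 80.9% (79.8 to 81.9) in FHT-1015. SMARCA4 was lost at 225 of them and appeared at 878. H3K27ac was at 81.0% and 82.6%, TFAP2A was kept at 91.9% and SOX10 at 32.6% (31.4 to 33.9). Away from starts the SMARCA4 shares were 50.9% in DMSO and 32.3% in FHT-1015, with 5369 sites lost and 1309 gained, and 7572 and 5911 of these 21890 sites had H3K27ac. The direction at starts was shared by the other classes and by the SOX10 list as a whole, in which SMARCA4 was at 71.7% of peaks near a start in DMSO and at 81.5% in FHT-1015. SOX10 was kept at 44.9% (44.1 to 45.7) of all SOX10 peaks near a start and at 63.2% (62.03 to 64.3) of triple sites there. Both lay above the 32.6% of the SOX10/TFAP2A sites. Near a start it was kept at 25.7% (22.3 to 29.4) of SOX10/MITF sites and at 14.7% (13.1 to 16.5) of SOX10-alone sites, both below that share.

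**Figure D3:**
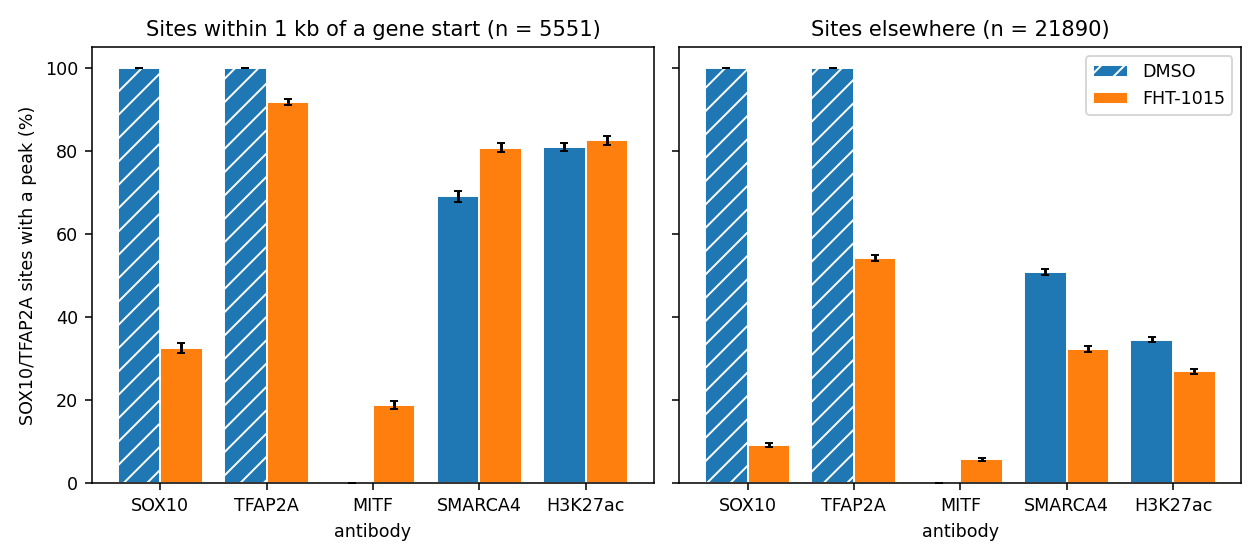
Share of SOX10/TFAP2A sites (y axis, %) with a peak of each antibody (x axis) in DMSO (blue) and FHT-1015 (orange), within 1 kb of a gene start (left) and elsewhere (right). Error bars are 95% Wilson intervals and hatched bars were fixed by the rule. SMARCA4 goes from 69.1% to 80.9% near starts and from 50.9% to 32.3% elsewhere.

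Whether SOX10 marks a TFAP2A site that is better kept was asked from the side of TFAP2A. The 26882 TFAP2A peaks at these sites were kept at 62.7% (62.2 to 63.3), and the 74254 TFAP2A peaks without SOX10 or MITF at 48.5% (48.1 to 48.8), a difference of 14.3 points, where 54.9% of all TFAP2A peaks were kept. The 2 groups differed in strength, with a median −log10 p of 16.4 against 6.38, and in position, with 24.2% against 7.68% at a gene boundary. Within deciles of TFAP2A strength the difference was −1.58 points (−2.32 to −0.836), so its sign was the other way. Among distal peaks within the same deciles it was −8.54 points (−9.36 to −7.72). In the ninth decile of distal peaks, TFAP2A was kept at 69.3% (67.7 to 70.8) of 3526 peaks with SOX10 and at 80.4% (78.6 to 82.1) of 1942 without. For TFAP2A peaks at the other SOX10 sites, the same distal comparison gave −16.4 points (−17.2 to −15.7). At like strength and away from gene boundaries, TFAP2A peaks at SOX10/TFAP2A sites were thus kept less often in these lists than TFAP2A peaks by themselves.

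**Figure D4:**
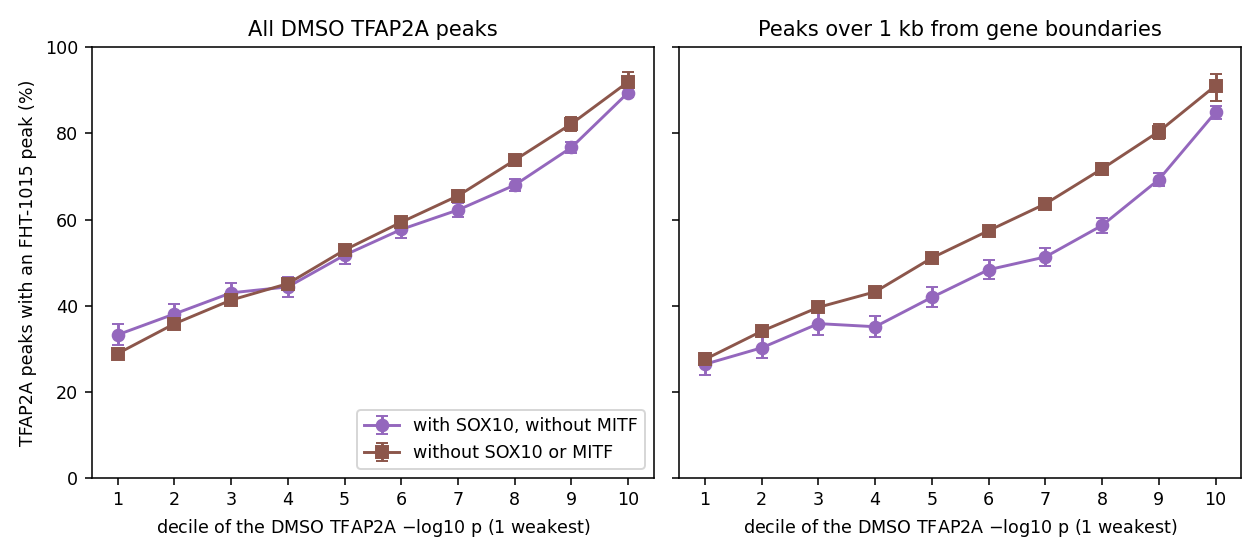
Share of DMSO TFAP2A peaks (y axis, %) with an FHT-1015 TFAP2A peak, by decile of the DMSO TFAP2A −log10 p (x axis, 1 weakest), for peaks at SOX10/TFAP2A sites (purple circles) and peaks without SOX10 or MITF (brown squares). The left panel shows all peaks and the right one those over 1 kb from a gene boundary, with 95% Wilson intervals. In the right panel the brown squares lie above the purple circles in every decile, as in the ninth with 80.4% against 69.3%.

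For SOX10 the comparison with other classes ran as follows. Triple sites kept SOX10 at 31.8% (31.3 to 32.3), which put the SOX10/TFAP2A sites 17.8 points lower. Within deciles of SOX10 strength the difference was −5.47 points (−6.14 to −4.81), and among distal peaks −3.80 (−4.42 to −3.19). Part of the crude gap thus went with the strength of the SOX10 peaks, and how large a part depends on how the deciles are weighted. The gap within deciles was wider among strong peaks. In the weakest decile SOX10 was kept at 4.9% of SOX10/TFAP2A sites and at 6.6% of triple sites. In the strongest decile SOX10 was kept at 32.5% (29.6 to 35.6) of 932 SOX10/TFAP2A sites and at 50.2% (49.1 to 51.2) of 8750 triple sites. SOX10-alone sites kept it at 9.41% (9.08 to 9.75), 4.56 points less than SOX10/TFAP2A sites. This difference was 0.635 points (0.115 to 1.15) within deciles and −2.77 points (−3.28 to −2.25) among distal peaks within deciles, where its sign changed. SOX10/MITF sites kept SOX10 at 8.49% (7.97 to 9.03), and SOX10/TFAP2A sites were 6.12 points above them within deciles (5.46 to 6.77). Among distal peaks within deciles this difference was 1.38 points (0.7503 to 2.01). Position thus moved with most of it: 24.05% of SOX10/TFAP2A sites and 7.06% of SOX10/MITF sites lay at a gene boundary.

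MITF had a peak in the FHT-1015 list at 2310 SOX10/TFAP2A sites, 8.42% (8.10 to 8.75), where 6.43% of all SOX10 peaks without MITF in DMSO did. These peaks were weak, with a median −log10 p of 4.85, and 0.696% of sites had one of 10 or more. SOX10 was kept at 45.2% (43.1 to 47.2) of the sites with such a MITF peak and TFAP2A at 89.7% (88.3 to 90.8). They lay near gene starts in 45.2% of cases. The MITF list was the only list that was longer in FHT-1015 (92716 peaks against 89519). Of its peaks, 61.1% had a q under 0.05 in FHT-1015 and 89.7% in DMSO, so its length is not read as more binding. The 4 strongest of the FHT-1015 MITF peaks at SOX10/TFAP2A sites all had a DMSO MITF peak a short way off. At GJC1, a gap junction connexin gene, a MITF peak with a −log10 p of 249 covered a site whose nearest DMSO MITF peak lay 63 bp away. At PKHD1, the gene of fibrocystin, the values were 247 and 94 bp, at TRAPPC2L, a vesicle trafficking gene, 170 and 242 bp, and at EIF4A3, an RNA helicase gene, 120 and 84 bp. At 3 of these 4 sites a DMSO MITF peak thus lay within 100 bp.

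The sites also differed by the acetylated region they lay in. Of the broad H3K27ac regions called in DMSO, 3502 held SOX10/TFAP2A sites together with triple sites, and 7539 held them without triple sites. The first had a median width of 3043 bp and overlapped an FHT-1015 region in 95.8% (95.1 to 96.4). The second had a median width of 1056 bp and did so in 74.3% (73.3 to 75.3). Regions with triple sites alone (20473) stood at 78.6% (78.0 to 79.1), with a median width of 1710 bp. Over all 53087 regions the share was 62.5% (62.04 to 62.9), and over the 21573 with neither kind of site, with a median width of 435 bp, it was 37.6% (36.97 to 38.3). Width moved with these shares, and its part was not tested. Within 5 kb, 30.1% of the SOX10/TFAP2A sites had a triple site and 27.5% another site of their own kind.

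By gene, 13442 of 20037 protein-coding genes had a SOX10/TFAP2A site inside them or within 20 kb, with a median of 1 and a maximum of 21 per gene. The genes with most were long ones: RAD51B, a recombination gene, with 21, SOX6, a SOX factor without an activation domain of its own, with 20, MACROD2 with 19, PDE4D, a cyclic AMP phosphodiesterase gene, with 18, AUTS2, FRMD6, HDAC9 and RNLS with 17 each, and MBNL2 and MITF with 16 each. None of the 17 at RNLS kept SOX10 and 4 of the 20 at SOX6 did. Per 100 kb, the densest included the neighbours ATP5F1D (27.9) and MIDN (25.7) and the neighbours NES (20.6) and BCAN (19.2). NES encodes nestin, an intermediate filament of neural stem cells and glial precursors, and BCAN encodes brevican, a proteoglycan of the nervous system. At NES, 10 of 16 SOX10 peaks were SOX10/TFAP2A sites.

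Among the gene lists, SOX10/TFAP2A sites took the smallest share of the SOX10 peaks at pigment genes. They made up 55 of 278 peaks, 19.8% (15.5 to 24.9), against 28.0% around all protein-coding genes. MLANA, a melanosome protein gene, had none among its 17 SOX10 peaks, TYRP1, a melanin enzyme gene, had 1 of 28 and TYR, the tyrosinase gene, 1 of 11. Other pigment genes lay above the share around all genes, among them SLC24A5 with 2 of 5, GPR143 with 2 of 6 and EDNRB, an endothelin receptor gene, with 6 of 20, and MITF stood near it with 16 of 56. At neural crest factor genes the share was 22.9% (18.7 to 27.6), at Gαq and MAP kinase genes 26.99% (21.6 to 33.1), at BAF subunit genes 27.4% (21.4 to 34.5), at YAP and TEAD genes 28.0% (19.5 to 38.6) and at survival and cell cycle genes 23.3% (16.7 to 31.7). It was higher at Schwann cell and glial targets of SOX10, with 33 of 88 (37.5%, 28.1 to 47.9), and at epithelial and adhesion genes of AP-2, with 20 of 44 (45.5%, 31.7 to 59.9). At ERBB2, a receptor tyrosine kinase gene known as a target of AP-2 factors, 6 of 9 SOX10 peaks were such sites, and at MCAM, a melanoma adhesion molecule gene, 5 of 6. In the same list the cadherin genes CDH1 and CDH3 had 1 of 7 and 2 of 9, and LAMB3 and KRT18 had none of 2 and of 1. The 3 control genes ACTB, GAPDH and TBP had 9 of 20 (45.0%, 25.8 to 65.8). With the control genes as high as the AP-2 targets, no share is read as particular to a list.

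**Figure D5:**
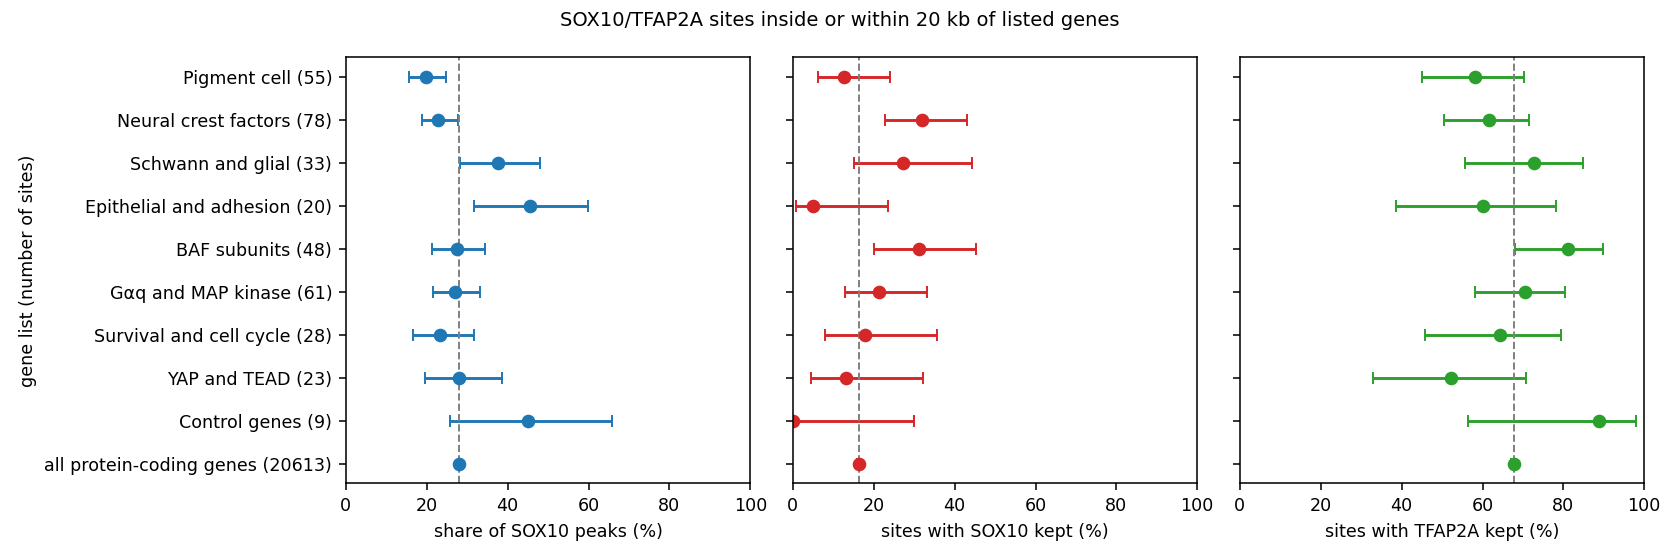
SOX10/TFAP2A sites inside or within 20 kb of the genes of 9 lists and of all protein-coding genes (rows, number of sites in brackets): their share of SOX10 peaks (left), and the shares of them with SOX10 kept (middle) and TFAP2A kept (right) in FHT-1015, in %. Bars are 95% Wilson intervals and dashed lines mark all protein-coding genes, for example 28.0% on the left. The pigment list lies left of the line in the left panel and the neural crest list right of it in the middle one.

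Around all protein-coding genes, 16.3% of the sites kept SOX10 in FHT-1015 and 67.7% kept TFAP2A. At neural crest factor genes SOX10 was kept at 25 of 78 sites (32.1%, 22.7 to 43.0) and at BAF subunit genes at 15 of 48 (31.3%, 19.9 to 45.3). At Schwann and glial genes it was kept at 9 of 33 (27.3%, 15.1 to 44.2), at pigment genes at 7 of 55 (12.7%, 6.30 to 24.02) and at the epithelial and adhesion genes at 1 of 20 (5.00%, 0.888 to 23.6), at MCAM. With so few sites most of these intervals included the share around all genes, and those of the neural crest and BAF lists did not. Sites of the BAF list often lay within 1 kb of a gene start, while few of those of the neural crest list did. Of all SOX10/TFAP2A sites within 1 kb of a start, 32.6% kept SOX10 and 91.9% kept TFAP2A. The part of position in the shares of the lists was not tested. TFAP2A was kept at 39 of the 48 sites of BAF genes (81.3%, 68.1 to 89.8), among them 8 of 9 at ARID1A, 6 of 6 at SMARCB1 and 5 of 6 at SMARCC2, with 4 of 8 at ARID1B and 1 of 2 at ARID2. The control genes kept TFAP2A at 8 of 9 sites (88.9%, 56.5 to 98.01) and SOX10 at none of 9, an interval of 0 to 29.9%. Neighbouring sites often shared 1 FHT-1015 peak, so they are not independent.

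The genes of the 2 factors differed from each other. At TFAP2A itself, 11 sites lay inside or within 20 kb (chr6:10396677-10419659 for the gene). Of them 6 kept SOX10 and 10 kept TFAP2A, and all 11 had SMARCA4 and H3K27ac peaks in both conditions. The strongest SOX10 values in the FHT-1015 list at this gene were 81.2, at a site of chr6:10414821-10415618 whose DMSO value was 26.2, and 13.8, at chr6:10409208-10410985 with 4.79 in DMSO. At SOX10, 5 sites were found (gene at chr22:37972312-37984555), and both factors were kept at 1, at chr22:37953349-37954004. All 5 had H3K27ac in DMSO and 2 had it in FHT-1015, while SMARCA4 was at 3 in DMSO and at 1 in FHT-1015. The strongest of the 5 by SOX10, at chr22:37998599-37998941 with 42.0 in DMSO, had none of the 5 antibodies' peaks in FHT-1015. PAX3, a neural crest factor that acts with SOX10 on the MITF promoter, had 8 sites, of which 5 kept SOX10, 6 kept TFAP2A and all kept H3K27ac. At MITF, 3 of 16 sites kept SOX10, 8 kept TFAP2A, and H3K27ac was at 14 in DMSO and at 15 in FHT-1015. At NES, 2 of 10 kept SOX10 and 8 kept TFAP2A. At the Gαq gene GNAQ, mutated in many uveal melanomas, 1 of 11 kept SOX10 and 6 kept TFAP2A, whereas all 3 sites at SPRY2, a feedback inhibitor of MAP kinase signalling, kept both. All 6 sites at ERBB2 were without SOX10 in FHT-1015, and 3 kept TFAP2A.

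The strongest single sites showed both outcomes. The site with the highest SOX10 −log10 p, inside KCNJ16 (a potassium channel subunit gene, chr17:70130210-70131352), had 206 in the DMSO SOX10 list and 10.2 in the FHT-1015 list. Its TFAP2A values were 320 and 57.2 and its SMARCA4 values 54.1 and 19.7, and its H3K27ac peak (4.05 in DMSO) was not called in FHT-1015. The strongest site without an FHT-1015 SOX10 peak lay in CNTNAP2, a neuronal adhesion gene (chr7:148173271-148173853), with 204 for SOX10 and 158 for TFAP2A in DMSO. No antibody had a peak there in FHT-1015, and H3K27ac had none in DMSO. At DAB2IP, the gene of a Ras GTPase-activating protein, and near INF2, a formin gene, SOX10 (154 and 152) was lost and TFAP2A kept (59.5 and 102 in DMSO, 7.80 and 6.61 in FHT-1015). At a site nearest to BAMBI, a decoy receptor gene of the TGF-β family, and 136008 bp from it, SOX10 (141) and TFAP2A (116) were both lost. Inside LOC101929773, SOX10 (138) was lost and TFAP2A kept (69.3 in DMSO, 4.43 in FHT-1015). Among sites strong for both factors, SIPA1L1, CNMD and FRMD3 lost SOX10 (134, 133 and 126) and kept TFAP2A, while NRARP, a Notch feedback gene, kept a SOX10 peak of 3.76. Of these 4, none but SIPA1L1 had H3K27ac in DMSO.

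The strongest sites that kept SOX10 included 2 with high values in both lists. At CSNK1G3, a casein kinase gene, a site near the gene start (chr5:123511761-123512581) had 170 for SOX10 in DMSO and 82.3 in FHT-1015, with H3K27ac at 101 and 192. A site nearest to ARHGEF26 (chr3:153900957-153901750), 219675 bp from that gene, had 146 and 85.9 for SOX10, 3.59 and 4.97 for TFAP2A, and 32.0 and 54.7 for SMARCA4. A site 824698 bp from NEGR1, a neuronal adhesion gene, had 204 and 44.0 for SOX10, without H3K27ac in either list. The site nearest to PLEC, the gene of the cytoskeletal linker plectin, had 170 and 6.97 for SOX10 and 41.7 and 5.89 for TFAP2A.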

How the data were processed

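ChIP-seq peak lists were analysed for 10 libraries (5 antibodies, DMSO and FHT-1015) of 11 samples. No peak list was used for the input. The submitters' processing notes name hg38, BWA, SAMtools, Picard and MACS2, without versions or roles; the caller's settings are not given in the sources used here. The authors deposited 10 narrow and 4 broad lists, called per library. Each peak has a fold enrichment (a ratio), −log10 p and −log10 q, deposited by the authors without a header; the deposited score was 10 times a truncated −log10 and was not used. Lists began just above a −log10 p of 2.

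Unique peaks were intersected (1 bp or more) in Python 3.11.15 with pandas 2.3.3, checked against bedtools 2.31.1 and tested on simulated data. A peak was kept when an FHT-1015 peak of that antibody overlapped the site. Matched differences were averaged over deciles with 20 or more peaks of both classes. Each decile was weighted by the product of the peak numbers of the 2 classes over their sum, so deciles with few peaks of either class counted little. Genes are those of RefSeq GRCh38.p14. The promoter table held starts for 15843 of 20056 protein-coding genes, so some sites near a start were counted as elsewhere. Depth was recovered under an inferred Poisson form of fold and p. Reads were whole within 0.01 for at least 99.9% of peaks in every list but SOX10 in FHT-1015. For that list a scale of 0.890 was chosen, on a sample of its weak peaks, to make most reads whole within 0.005. This held for 99.9% of the sample, a fitted share that is no check of the form. Sites and lists were chosen with earlier results of these data known. Named genes were those of the lists, the 10 with most sites, the 5 densest with at least 5 sites, and those at the 5 strongest lost, kept, doubly strong and FHT-1015 MITF sites; some of them are not reported here. Sites were taken inside a gene or within 20 kb.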

Additional observations from a re-analysis of the deposited data

How the results depend on the processing

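No paired analysis was possible because each antibody had 1 library per condition. Alternatives marked as added were chosen after seeing the data. Under the site rules of summits within 200 bp, q under 0.05 in the 3 factor lists, and no MITF peak within 500 bp, the sites were 21.9%, 27.6% and 22.8% of SOX10 peaks. SMARCA4 in DMSO was then at 52.0% and 56.6% under the first 2 rules and at 62.7% with the broad list, and H3K27ac at 38.3%, 45.9% and 46.8%. SOX10 was kept at 12.2% (summit rule), 15.4% (q rule) and 11.1% (no MITF in either condition), and TFAP2A at 58.8%, 63.1% and 59.3%. With 50% of the peak covered, with summits within 200 bp, with −log10 p of 10 or more in both lists, and with that limit in DMSO alone, SOX10 was kept at 8.57%, 11.6%, 4.52% and 25.5%, and TFAP2A at 57.5%, 57.3%, 51.3% and 71.4%. With the DMSO list limited to as many peaks as the FHT-1015 list (added), SOX10 was kept at 28.3%. Under the first 3 of these settings SMARCA4 was kept at 56.4%, 45.0% and 60.2%, and at 67.2% with broad lists; H3K27ac was kept at 74.1%, 61.6% and 82.2%. MITF in FHT-1015 was at 0.696% with peaks of 10 or more and at 7.63% without MITF within 500 bp. Against triple sites the SOX10 difference was −5.47 matched, −16.2 by summits, −10.8 at 10 or more, and −3.80 among matched distal peaks (added). Against SOX10-alone sites it was 0.635, 3.34, 1.61, 5.27 with the q rule, and −2.77 (reversed) among matched distal peaks (added). Against SOX10/MITF sites, where all alternatives were added, it was 4.25 by summits, 1.04 at 10 or more, 6.28 with the q rule and 1.38 among matched distal peaks. Distal minus boundary was −21.0 with 2.5 kb and −18.1 by summits. For TFAP2A at these sites against TFAP2A alone, it was −1.58 matched (reversed), 11.3 by summits, 15.2 at 10 or more, and −8.54 among matched distal peaks (reversed, added). The cause of these shifts was not tested. The order of TFAP2A above SOX10 held in every setting run for both. Reads under SOX10 summits (median 19) limit which weak peaks can be called.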
